A study of Mus musculus with 7 samples.

Results

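Axon and dendrite guidance genes encode the secreted and membrane-bound cues, and the receptors that read them, by which growing neurites find their paths. The genes described here were chosen by name: semaphorins, plexins, ephrins, Eph receptors, Robo and Unc5 receptors and netrin-Gs by the start of their symbol, and Slit1 to Slit3, Nrp1, Nrp2, Ntn1, Ntn4, Dcc and Neo1 by their full symbol, each with 10 or more counts in at least 3 of the 7 libraries. Of 75 genes with such names among 55401 in the files, 68 met the count rule. The other 7 were Epha1, Efna4, Unc5cl, Robo3 and the antisense genes Plxna4os1, Plxna4os2 and Plxna4os3. Unc50, which shares only the start of its name with the netrin receptors, met the rule too. It is counted among the 68 guidance genes by its name alone and was kept out of the families and roles below.

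RNA was recovered with tagged ribosomes (RiboTag) from cerebella of 3-week-old mice that all carried Rpl22fl/+;PCP2-Cre. In these mice the ribosomal protein RPL22 gains an HA tag where Cre is active, which the PCP2 promoter restricts mainly to Purkinje cells, the output neurons of the cerebellar cortex. The 3 wild-type mice carried no mutation at the nm3888 locus and the 4 nm3888-/- mice were homozygous for it. The allele is an insertion of a retroviral element in the gene of the transcription factor Rreb1, it arose on the NOD strain and was backcrossed to C57BL/6J. Each library held 1 mouse. Wild types 1 and 2 and mutants 1 and 2, all female, formed a first library series, and wild type 3 (female) and mutants 3 and 4 (male) formed a second, so that in the second series sex and genotype cannot be told apart.

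Semaphorins signal through plexins, and most of the secreted class 3 semaphorins need a neuropilin as co-receptor. Ephrins and Eph receptors are both bound to the cell surface and can signal in either direction, Slits act through Robo receptors, and netrins act through Dcc, neogenin and the Unc5 receptors. In the cerebellum, Purkinje cells are known both to receive such cues as their dendrites form and to release them towards climbing fibres, granule cells and interneurons.

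The results turn on 6 guidance genes that were lower in the mutant, and the stretch of 250 bases before the start site is shown for the 5 of them with a promoter entry in RefSeq (mouse build GRCm38.p6, each written in the direction of its gene), to show the sequence at the start of the genes on which the comparison turns. Capitals mark CCACCC or its reverse complement GGGTGG, letters that lie within the known RREB1 binding motif, and CAGATG, an E-box of the kind that neurogenic basic helix-loop-helix factors bind. Both strands were searched. The Efna3 stretch lies at chr3:89322940-89323189 on the minus strand, the Sema4f stretch at chr6:82939770-82940019 on the minus strand, the Sema6b stretch at chr17:56140344-56140593 on the minus strand, the Sema6c stretch at chr3:95160170-95160419 on the plus strand and the Sema7a stretch at chr9:57939862-57940111 on the plus strand.
Efna3: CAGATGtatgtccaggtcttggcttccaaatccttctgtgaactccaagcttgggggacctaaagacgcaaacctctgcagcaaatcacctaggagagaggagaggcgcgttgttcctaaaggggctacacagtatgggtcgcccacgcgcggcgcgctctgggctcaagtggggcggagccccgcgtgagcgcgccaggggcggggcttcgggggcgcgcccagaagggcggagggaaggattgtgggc
Sema4f: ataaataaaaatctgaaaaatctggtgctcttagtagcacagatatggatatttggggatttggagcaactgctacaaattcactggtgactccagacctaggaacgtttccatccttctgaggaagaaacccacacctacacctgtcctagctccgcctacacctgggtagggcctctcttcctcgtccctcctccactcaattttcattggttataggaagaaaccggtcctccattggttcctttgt
Sema6b: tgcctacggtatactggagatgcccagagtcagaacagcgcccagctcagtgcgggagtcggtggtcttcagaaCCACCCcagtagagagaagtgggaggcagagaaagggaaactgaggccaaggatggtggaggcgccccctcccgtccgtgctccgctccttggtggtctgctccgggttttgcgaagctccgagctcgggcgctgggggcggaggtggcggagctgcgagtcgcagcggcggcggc
Sema6c: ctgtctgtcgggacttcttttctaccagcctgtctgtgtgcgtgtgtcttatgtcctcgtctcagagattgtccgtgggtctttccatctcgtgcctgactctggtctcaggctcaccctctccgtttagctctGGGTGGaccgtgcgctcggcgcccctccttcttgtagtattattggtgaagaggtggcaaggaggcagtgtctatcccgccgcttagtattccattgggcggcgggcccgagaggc
Sema7a: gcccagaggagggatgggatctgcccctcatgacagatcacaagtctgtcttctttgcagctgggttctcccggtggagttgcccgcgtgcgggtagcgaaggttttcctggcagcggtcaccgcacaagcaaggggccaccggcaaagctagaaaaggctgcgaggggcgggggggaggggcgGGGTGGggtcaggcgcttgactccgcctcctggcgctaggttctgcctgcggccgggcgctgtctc

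CCACCC was present in the stretches of Sema6b, Sema6c and Sema7a, beginning 176, 116 and 66 bases before the start site, and in neither Efna3 nor Sema4f. Over the 58 guidance genes with an entry it was present in 29 (50.0%), against 28.1% of all 32851 promoters. CAGATG was present in Efna3 alone among the 5, at the far end of the stretch, in 4 of the 58 guidance genes (6.90%) and in 14.4% of all promoters. The stretches of the guidance genes were richer in G and C, with a median of 65.4% against 52.4% over all promoters. The RefSeq start sites of Efna3 and Sema6c lie 26 and 37 bases from the start of the gene in the files, and those of the other 3 coincide with it. Among the 58, the nearest RefSeq start was far from the gene start for Robo1 (354843 bases), Sema3a (271370), Sema4d (37064) and Ntng2 (4906). A match of these letters is a description of the sequence and not a binding site.

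Total counts per library ranged from 18023017 to 107937386. Of 20 Purkinje cell markers none passed the test between genotypes (edgeR, median log2 fold change 0.03; Pcp2 0.27 and Calb1 0.10), and their summed level was 57817 to 64993 CPM (counts scaled to library size, TMM-normalized) in wild type and 53876 to 69569 CPM in mutants. The mutated gene itself, Rreb1, averaged 16.5 ± 1.81 CPM in the wild types (SD, n = 3) against 18.5 ± 5.46 in the mutants (SD, n = 4). Its log2 fold change was 0.20 with an SE of 0.233 (edgeR adjusted p = 0.640) over all of its exons, which does not separate its transcripts. The paper reports that the predominant Rreb1 transcript was lost in the mutant on Northern blots. It also reports no in situ signal in mutant brain with a probe to all transcripts. The counts here did not show such a loss, and the reason was not tested. Of 16 granule cell markers 1 was higher, and of 16 oligodendrocyte markers 2 were higher and 1 lower, against 2.58% and 5.95% of all genes. Fold changes above 0 were held by 15 of the granule cell markers and 14 of the oligodendrocyte markers. Their medians were 0.50 and 0.54, against 0.03 over all genes. The sum of the granule cell markers was 648 to 756 CPM in wild type and 770 to 1504 CPM in mutants, so every mutant lay above every wild type. That of the oligodendrocyte markers was 546 to 780 CPM in wild type and 714 to 1267 CPM in mutants, and these groups overlapped. The sums were not tested.

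Across the 68 guidance genes, all of which were tested, 6 were lower in nm3888-/- Purkinje cells and none was higher at an adjusted p under 0.05 (edgeR quasi-likelihood test with the library series as a term). Over all 17621 genes tested, 5.95% were called lower and 2.58% higher. The 6 lower genes make 8.82% of the group, a share near that background. At an unadjusted p under 0.05, 9 guidance genes were below 0 and 8 above, against 13.2% and 10.4% of all genes, and DESeq2 called 7 lower and 5 higher, against 6.90% and 4.34% of all genes. With the replicate number of the labels as a block in place of the series, 4 were lower and 1 higher, against 3.24% and 1.37% of all genes. The median log2 fold change of the group was 0.19, against 0.03 over all genes, and 45 of 68 fold changes were above 0. With sex in place of the library series the median of the group was -0.04, against -0.01 over all genes. For 42 of the 62 genes not called, the 95% interval of the fold change lay within 1 log2 unit of 0, and for the other 20 it reached further.

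**Figure D1:**
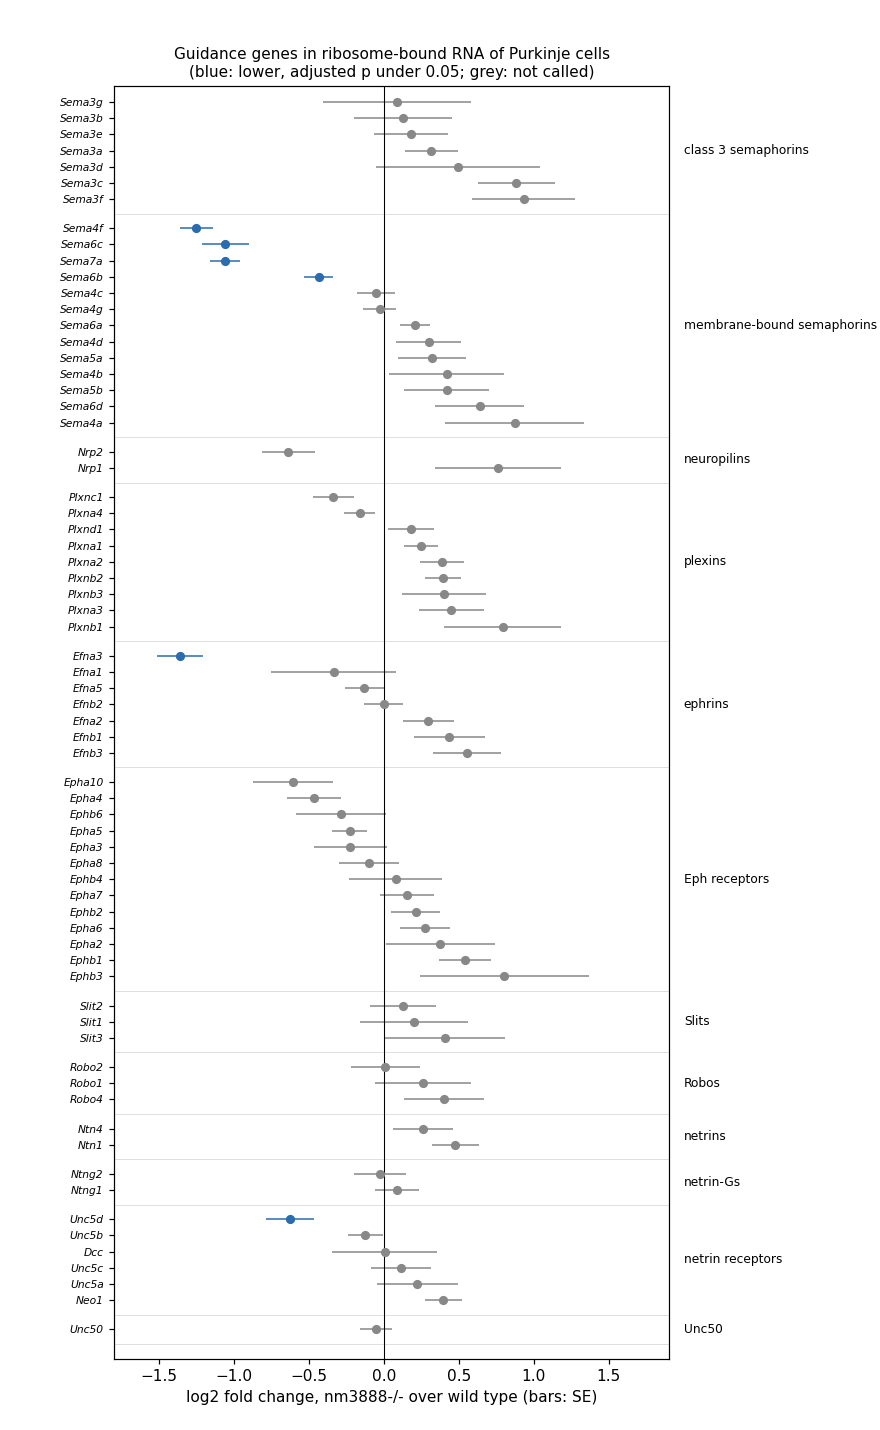
Log2 fold change of each of the 68 guidance genes in nm3888-/- over wild type (horizontal axis; points, edgeR estimate; bars, SE), grouped by family; blue marks the 6 genes lower at an adjusted p under 0.05. The lower genes are Sema4f, Sema6c, Sema7a and Sema6b among the membrane-bound semaphorins, Efna3 among the ephrins and Unc5d among the netrin receptors, and points of the class 3 semaphorins, Slits, Robos and netrins all lie above 0 without passing the test.

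By role, 5 of the 34 ligands (14.7%) and 1 of the 33 receptors (3.03%) were lower, against 5.95% of all genes. Differences between roles or families were not tested. The membrane-bound semaphorins held 4 of the 6 (of 13 tested), the ephrins 1 of 7 and the netrin receptors 1 of 6. None of the 7 class 3 semaphorins, 9 plexins, 2 neuropilins, 13 Eph receptors, 3 Slits, 3 Robos, 2 netrins and 2 netrin-Gs was called in either direction. Every mutant library lay below every wild-type library for 7 guidance genes, the 6 lower ones and Nrp2 (8.92% of all genes), and above for 2, Sema3c and Neo1 (5.16% of all genes).

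The guidance genes spanned a wide range of levels. Per kilobase of exon, Sema7a had the highest level in wild type, 149 ± 29.9 CPM per kilobase (SD, n = 3), and it was followed by Sema4g at 56.1 ± 3.59, Sema6b at 37.0 ± 7.76, Unc50 at 21.7 ± 3.18 and Efna3 at 19.5 ± 2.23. The wild-type ranges of these 5 genes did not overlap, except those of Unc50 (19.0 to 25.2) and Efna3 (16.9 to 21.2). Below them, Epha4 (8.48 ± 1.19), Sema4f (8.40 ± 0.414), Sema6c (8.36 ± 1.34), Epha8 (7.84 ± 2.58) and Plxna4 (7.74 ± 0.848) had overlapping ranges and cannot be put in order. At the low end, Dcc was at 0.0423 CPM per kilobase and Robo1 at 0.0889. A level of 1 CPM per kilobase or more in wild type was reached by 40 of the 68 genes, among them all 6 that were lower in the mutant. The other 28 had lower levels.

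**Figure D2:**
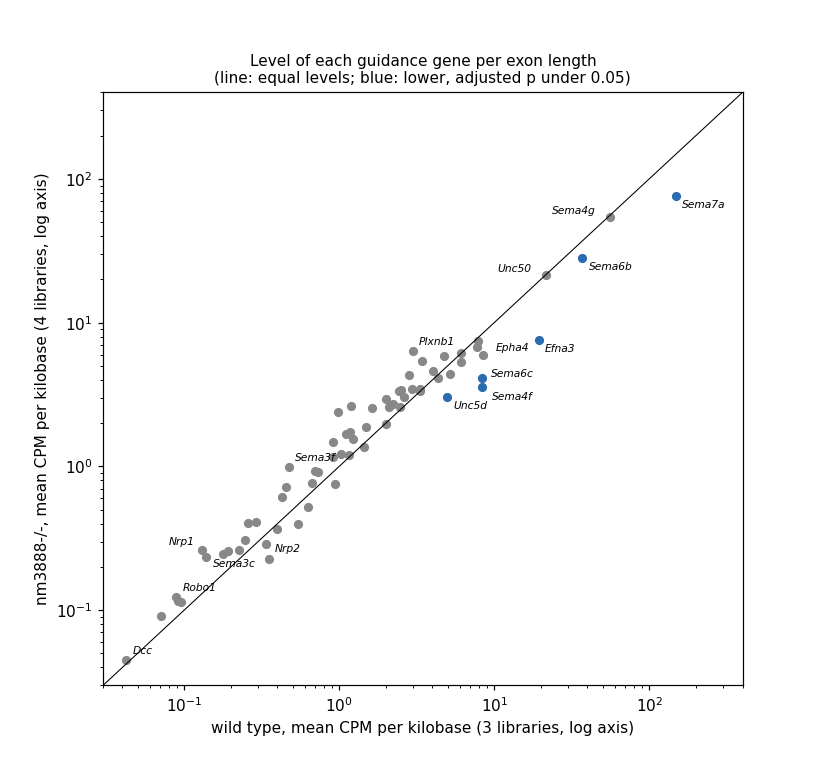
Mean level of each guidance gene per kilobase of exon (CPM per kilobase, log axes) in the 3 wild-type libraries (horizontal) and the 4 nm3888-/- libraries (vertical); the line marks equal levels and blue the 6 lower genes. Sema7a lies at 149 in wild type and 76.6 in mutants, while Sema4g, the next gene, lies on the line (56.1 and 54.5).

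Sema7a, a semaphorin held in the membrane by a lipid anchor that signals through integrins and plexin C1 and is a known cue from Purkinje cells to climbing fibres, was at 437, 432 and 605 CPM in wild types 1 to 3. In mutants 1 to 4 it was at 219, 185, 324 and 282 CPM. Every mutant lay below every wild type, and within each library series the groups were further apart than the libraries within a group. The log2 fold change was -1.06 (SE 0.0999, 95% interval -1.29 to -0.83, adjusted p = 0.000412), and it was -1.10 in the first series and -0.99 in the second. With no series term, or with sex in place of the series, Sema7a did not pass. In RNA from a whole tissue pull-down, fewer cells of a type and less RNA per cell cannot be told apart, which holds for each gene below. The summed Purkinje cell markers of the groups overlapped, as given above. Plxnc1, the plexin C1 receptor of this ligand, was at 7.23 to 8.22 CPM in wild type and 5.71 to 7.34 CPM in mutants (log2 fold change -0.34, SE 0.137, adjusted p = 0.178), which did not pass the test.

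Sema4f, a transmembrane semaphorin, had the tightest groups of the 6. It was at 41.9, 45.7 and 45.7 CPM in wild types 1 to 3 and at 19.5, 15.8, 21.0 and 19.6 CPM in mutants 1 to 4. The log2 fold change was -1.25 (SE 0.109, adjusted p = 0.000291), with -1.31 and -1.16 in the 2 series. Sema4f passed in each of the 16 alternative settings.

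Sema6c, a transmembrane semaphorin of the class that binds A-type plexins, was at 46.4, 43.8 and 58.7 CPM in wild types and at 27.2, 19.4, 21.2 and 29.7 CPM in mutants. The highest mutant lay well below the lowest wild type. The log2 fold change was -1.06 (SE 0.157, adjusted p = 0.00428), and without wild type 3 the gene no longer passed (-0.96, adjusted p = 0.0515). Nor did it pass with no series term or with sex in place of the series.

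Sema6b, of the same class and a ligand of plexin A4, was at 129, 129 and 183 CPM in wild types and at 110, 92.0, 125 and 123 CPM in mutants. The groups did not overlap, but mutants 3 and 4 came close to wild types 1 and 2, which belong to the other series. The log2 fold change was -0.44 (SE 0.0974, adjusted p = 0.0271). With no series term, or with sex in place of the series, Sema6b did not pass. With the replicate number as a block the call was lost (-0.42, adjusted p = 0.111), as it was without wild type 1, 2 or 3 (adjusted p = 0.0884, 0.0959 and 0.219) and without mutant 2 or 4 (adjusted p = 0.0931 and 0.0664).

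The other 9 membrane-bound semaphorins did not pass the test. Sema4g, which follows Sema7a in level per kilobase, was at 451, 496 and 510 CPM in wild types and at 520, 518, 401 and 448 CPM in mutants. These groups overlapped, with a log2 fold change of -0.03 and a 95% interval of -0.28 to 0.22. Sema6a, a cue known for its part in granule cell migration, averaged 22.9 ± 0.749 CPM over the wild types (SD, n = 3) and 26.8 ± 2.38 over the mutants (SD, n = 4), which gave a log2 fold change of 0.21 (adjusted p = 0.272). Sema4a, Sema4b, Sema4d, Sema5a, Sema5b and Sema6d had log2 fold changes of 0.30 to 0.87 and adjusted p of 0.243 to 0.561, and Sema4c one of -0.05.

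**Figure D3:**
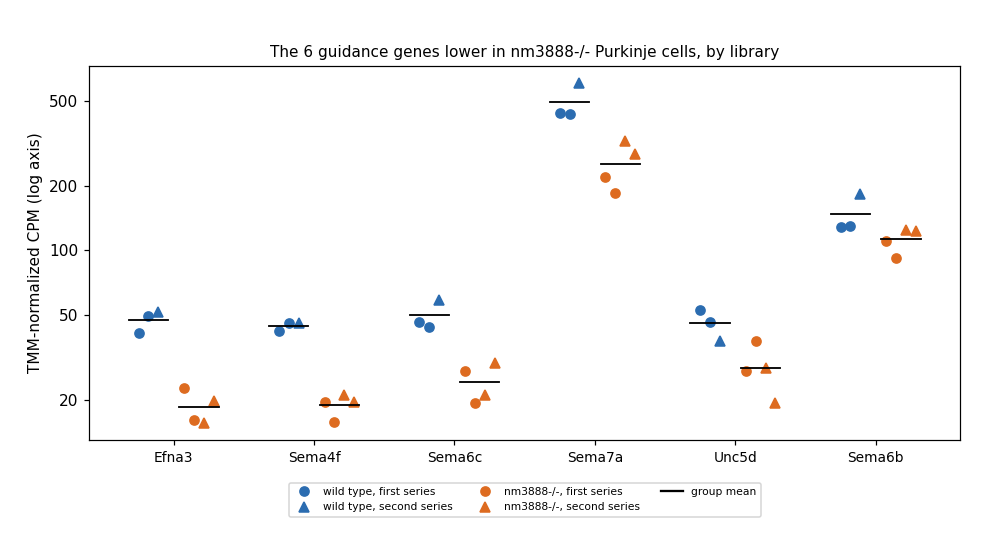
Level of the 6 lower guidance genes in each library (TMM-normalized CPM, log axis); blue, 3 wild-type libraries; orange, 4 nm3888-/- libraries; circles and triangles, first and second library series; lines, group means. All mutant points lie below all wild-type points for each gene, with the widest gap at Sema4f (41.9 to 45.7 CPM against 15.8 to 21.0 CPM) and nearly touching points at Unc5d.

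Efna3, which encodes ephrin-A3, a lipid-anchored ligand of EphA receptors, had the lowest fitted fold change of the group, with an interval that overlapped that of Sema4f (-1.50 to -1.005). It was at 41.2, 49.3 and 51.6 CPM in wild types and at 22.6, 16.1, 15.6 and 19.7 CPM in mutants. The log2 fold change was -1.36 (SE 0.154, 95% interval -1.71 to -1.01, adjusted p = 0.00111), with -1.23 in the first series and -1.55 in the second. Every library left out in turn kept the call, but with sex in place of the series it was lost. The other ephrins were not called: Efna5 was at 24.5 ± 3.52 CPM in wild type and 21.5 ± 5.14 CPM in mutants, and Efnb3 had a log2 fold change of 0.55 (adjusted p = 0.183).

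The EphA receptors, which bind ephrin-A3 among other ligands, had 5 of 8 fold changes below 0 and none called. Epha4, whose level per kilobase overlapped that of Epha8, was at 75.4, 72.1 and 57.4 CPM in wild types and at 40.8, 53.9, 60.2 and 38.5 CPM in mutants. Mutant 3 lay above wild type 3, and the log2 fold change of -0.47 (SE 0.179) missed the threshold (adjusted p = 0.153). Without mutant 3, the highest mutant, it passed (-0.61, edgeR adjusted p = 0.0241), and it passed in no other alternative setting. Epha8 was at 36.9 ± 12.2 CPM in wild type and 34.9 ± 3.41 CPM in mutants. Among the 5 EphB receptors, Ephb1 was at 5.38 to 7.14 CPM in wild type and 6.71 to 13.6 CPM in mutants (log2 fold change 0.54, edgeR adjusted p = 0.0993), and DESeq2 called it higher (adjusted p = 0.0354).

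Unc5d, a netrin receptor of the repulsive Unc5 family, was at 52.7, 46.2 and 37.8 CPM in wild types and at 27.2, 37.7, 28.2 and 19.4 CPM in mutants. Mutant 2 all but equalled wild type 3, although within each series the groups were apart. The log2 fold change was -0.63 (SE 0.159, adjusted p = 0.0445), and it was -0.60 and -0.66 in the 2 series. With no series term, or with sex in place of the series, Unc5d did not pass. The call was lost with the replicate block (-0.55, adjusted p = 0.108), without wild type 1, 2 or 3 (adjusted p = 0.133, 0.0929 and 0.219) and without mutant 1, 2 or 4 (adjusted p = 0.106, 0.0516 and 0.0700).

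No other netrin receptor passed. Unc5b was at 27.3 ± 3.49 CPM in wild type and 25.6 ± 2.91 CPM in mutants, and Unc5c, known from ataxic mouse mutants, at 63.1 ± 16.9 and 63.8 ± 15.5 CPM. Neo1, which encodes neogenin, a receptor for netrins and RGM proteins, was at 20.3, 20.8 and 22.3 CPM in wild types and at 23.6, 25.8, 37.1 and 29.8 CPM in mutants. These groups did not overlap, yet its log2 fold change of 0.40 (SE 0.123) had an adjusted p of 0.0889, while DESeq2 called it higher (adjusted p = 0.0443). Of the ligands, Ntn1 was at 12.6 ± 0.955 CPM and 18.6 ± 4.87 CPM (log2 fold change 0.48, adjusted p = 0.108) and Ntn4 at 4.61 ± 0.931 and 5.80 ± 1.37 CPM. The netrin-Gs, lipid-anchored relatives that bind synaptic NGL proteins, had log2 fold changes of 0.09 (Ntng1) and -0.02 (Ntng2).

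All 7 class 3 semaphorins had a fold change above 0 and none passed the edgeR test. Sema3a, the collapsing cue of the class and the one at the highest level, was at 74.2, 70.7 and 53.1 CPM in wild types and at 62.2, 90.5, 92.7 and 78.0 CPM in mutants (log2 fold change 0.32, SE 0.174, adjusted p = 0.315). Sema3c was at 1.07, 1.15 and 0.732 CPM in wild types and at 1.26, 2.06, 1.65 and 1.77 CPM in mutants. These groups did not overlap, at a low level, and the log2 fold change was 0.88 (SE 0.259, adjusted p = 0.0743). Without mutant 1, the lowest mutant, it passed (1.07, edgeR adjusted p = 0.0337). Sema3f was at 2.73, 1.31 and 3.36 CPM in wild types and at 5.71, 2.35, 7.04 and 5.40 CPM in mutants, where mutant 2 lay within the wild-type range. Its log2 fold change was 0.93 (SE 0.343, adjusted p = 0.141), and with the replicate block it passed as higher (1.01, adjusted p = 0.0293). DESeq2 called both Sema3c and Sema3f higher (adjusted p = 0.0402 for each).

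The 2 neuropilins had fold changes of opposite sign. Nrp2 was at 4.70, 3.52 and 4.25 CPM in wild types and at 2.78, 2.38, 2.91 and 2.74 CPM in mutants. The groups did not overlap, and the log2 fold change was -0.64 (SE 0.175, adjusted p = 0.0598), short of the threshold in edgeR and past it in DESeq2 (adjusted p = 0.0284). Nrp1 was at 1.07, 1.50 and 1.28 CPM in wild types and at 1.73, 1.04, 2.58 and 4.96 CPM in mutants (log2 fold change 0.76, adjusted p = 0.316).

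The plexins had 7 of 9 fold changes above 0, with a median of 0.39 and none called. Plxna4, a receptor for Sema6 proteins and, with neuropilins, for Sema3a, had the highest level per kilobase and was at 112, 119 and 96.0 CPM in wild types and at 91.5, 103, 101 and 87.7 CPM in mutants. The groups overlapped, and the log2 fold change was -0.16 (SE 0.102, adjusted p = 0.380). Plxna2 had a log2 fold change of 0.39 (adjusted p = 0.155). Plxnb2, a receptor for class 4 semaphorins that is widely made by neural precursors, was at 18.4, 14.7 and 32.4 CPM in wild types and at 22.0, 19.0, 44.2 and 48.3 CPM in mutants, so that the groups were apart within each series and overlapped between them (log2 fold change 0.39, SE 0.122, edgeR adjusted p = 0.0887, DESeq2 adjusted p = 0.0437). Plxnb1 was at 30.0, 25.7 and 30.2 CPM in wild types and at 49.6, 20.3, 59.8 and 115 CPM in mutants (log2 fold change 0.79, SE 0.390, adjusted p = 0.264).

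Slits and Robos did not pass the test. Robo2, the Robo at the highest level, was at 108, 106 and 98.3 CPM in wild types and at 66.7, 138, 125 and 88.2 CPM in mutants. The mutants lay on both sides of the wild types, with a log2 fold change of 0.01 (SE 0.231). Slit2 was at 5.06 to 6.32 CPM in wild type and 4.08 to 8.85 CPM in mutants, and Slit3 at 1.56 ± 0.396 CPM (SD, n = 3) in wild type and at 1.15 to 5.26 CPM in mutants. Robo4, known from blood vessels, was at 0.941 ± 0.133 CPM and 1.31 ± 0.436 CPM (log2 fold change 0.40, adjusted p = 0.409).

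The 2 library series, fitted apart, differed in how the guidance genes lay around 0. The median log2 fold change was 0.04 in the first series and 0.33 in the second, against 0.01 and 0.03 over all genes. In the first and second series, 38 and 48 of the 68 genes were above 0. In all, 33 genes were above 0 in both, 15 below 0 in both, the 6 lower genes among them, and 20 had opposite signs. Efna3, Sema4f, Sema6c and Sema7a passed as lower in the first series alone, 4 of 68 against 2.86% of all genes. The second series has a single wild type, whose spread is assumed to be that of its 2 mutants, both male, so that its calls have no check in the wild type. There the same 4 genes passed as lower (2.84% of all genes), and Plxnb1, Sema6d, Sema4a, Ephb3 and Nrp1 passed as higher (5 of 68, against 3.27% of all genes), with log2 fold changes of 1.18 to 1.55. In the first series alone theirs were 0.07 to 0.38, and none of the 68 genes passed as higher (1.12% of all genes). A test of the difference between the series, added after the data were seen, called none of the 68 genes (edgeR interaction term, against 0.0795% of all genes). At an unadjusted p under 0.05 it held Sema3g and Sema3d, 2 of 68 against 5.77% of all genes. The summed oligodendrocyte markers were 657 CPM in wild type 3 and 995 and 1267 CPM in mutants 3 and 4, and the granule cell markers 691 CPM, 1504 CPM and 864 CPM. Mutant 4 was the highest library for Plxnb1, Sema4a, Ephb3 and Nrp1, and mutant 1 for Sema6d (68.8 CPM). These genes were chosen by their high values in mutants 3 and 4, so high points in those libraries follow in part from the choice. Among the marker sums, mutant 4 was highest for oligodendrocytes, microglia (16.5 CPM) and endothelial cells and pericytes (116 CPM). Mutant 3 was highest for granule cells, Bergmann glia and astrocytes, choroid plexus and blood. The part of other cell types in these values was not tested.

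**Figure D4:**
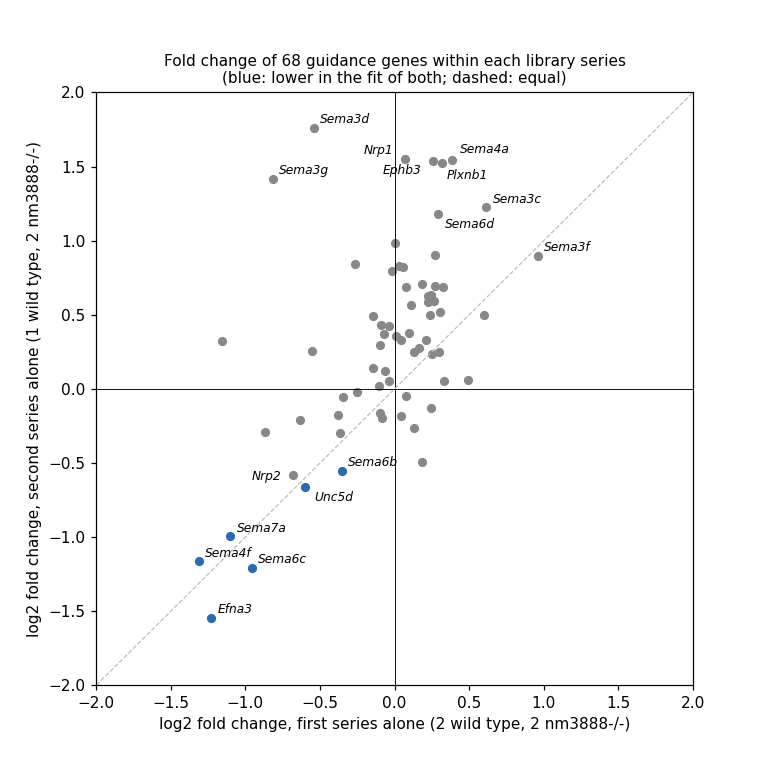
Log2 fold change of the 68 guidance genes within the first library series (horizontal; 2 wild-type and 2 nm3888-/- libraries) and within the second (vertical; 1 wild-type and 2 nm3888-/- libraries); the dashed line marks equal values and blue the 6 lower genes. The 6 lower genes lie near the dashed line below 0 on both axes, while Plxnb1, Sema4a, Ephb3, Nrp1 and Sema6d lie above it. Sema3d (-0.54 in the first series and 1.76 in the second) and Sema3g (-0.81 and 1.42) lie farther above it than these.

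**Figure D5:**
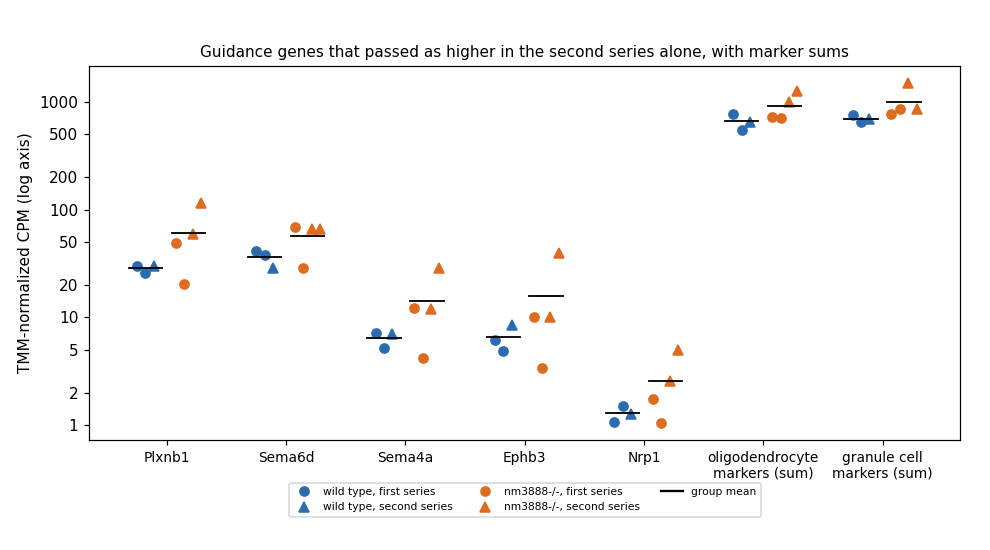
Level by library (TMM-normalized CPM, log axis) of the 5 guidance genes that passed as higher in the second series alone, beside the sums of the 16 oligodendrocyte and 16 granule cell markers; blue, wild type; orange, nm3888-/-; circles and triangles, first and second series; lines, group means. Mutant 4 has the highest point for Plxnb1 (115 CPM), Sema4a (28.7 CPM), Ephb3 (39.7 CPM) and Nrp1 (4.96 CPM) and for the oligodendrocyte sum (1267 CPM). Sema6d is highest in mutant 1 (68.8 CPM) and the granule cell sum in mutant 3 (1504 CPM). The 5 genes were chosen by their second-series values, so high points there follow in part from the choice. Mutant 4 is also highest for the microglia and the endothelial and pericyte sums, which are not plotted.

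The lower guidance genes were set beside the marker lists in full. Of the 16 oligodendrocyte markers, Cnp and Cldn11 were higher and Ugt8a lower, with a median log2 fold change of 0.54. For the 16 granule cell markers 1 was higher (median 0.50), for the 18 Bergmann glia and astrocyte markers 1 was higher and 1 lower (median 0.59), and for the 10 microglia markers tested 1 was higher (median 0.68). Endothelial, choroid plexus and blood markers had medians of 0.30, 0.78 and 0.70 and none called. The sum of the interneuron and unipolar brush cell markers was 882 to 890 CPM in wild type and 430 to 491 CPM in mutants, but it was carried by Slc32a1, the vesicular GABA transporter that Purkinje cells make as well (647 to 758 CPM and 244 to 344 CPM), and the list had a median of 0.33. Slc32a1 (-1.25), Hopx (-0.82) and Ugt8a (-0.84) were the markers called lower, beside fold changes of -0.44 to -1.36 in the lower guidance genes, and the part of other cell types in those was not tested. The defining markers Lmx1a (unipolar brush cells) and Aif1 (microglia) had no count in at least 1 library.

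Among 91 other genes of guidance signalling, 2 were higher and 8 lower in the mutant, with a median log2 fold change of 0.01. These shares, 2.20% and 8.79%, lay near the 2.58% and 5.95% of all genes. With the replicate block 1 was higher and 2 lower (1.37% and 3.24% of all genes). Leaving out a library left 1 higher in 5 of 7 cases, and 5, 3, 2 and 4 lower without wild type 1, 2, 3 and mutant 2, where 3.44%, 3.06%, 2.39% and 3.65% of all genes were lower.

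Of the semaphorin and plexin signalling genes, 3 of 22 were lower. Rnd1, whose protein binds plexins, was at 49.5, 37.5 and 58.3 CPM in wild types and at 29.1, 24.7, 23.6 and 27.4 CPM in mutants, which did not overlap (log2 fold change -0.90, SE 0.150, adjusted p = 0.00745), and without wild type 3 the call was lost (-0.70, adjusted p = 0.0813). Cdk5, the kinase that acts in Sema3a signalling, and Mical2, an enzyme that oxidizes actin, had log2 fold changes of -0.47 and -0.49 (adjusted p = 0.0308 and 0.0407), and both lost the call with the replicate block (adjusted p = 0.0785 and 0.134) and without any one of the wild types. None of the 17 genes of Eph and ephrin signalling was called.

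Of the 23 genes of Slit and Robo signalling, 1 was higher and 1 lower. Sdc4, a heparan sulphate proteoglycan of the syndecan family, was at 5.49, 4.87 and 5.15 CPM in wild types and at 14.04, 14.2, 17.1 and 15.5 CPM in mutants. The groups were far apart in both series (log2 fold change 1.54, SE 0.125, adjusted p = 0.000189). Srgap3, whose protein binds Robo receptors, was at 191, 199 and 154 CPM in wild types and at 123, 128, 120 and 101 CPM in mutants (log2 fold change -0.57, SE 0.0962, adjusted p = 0.00780; with the replicate block, adjusted p = 0.0525).

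Of the 29 genes of netrin, Dcc and neogenin signalling, 1 was higher and 4 lower. Dscam, a cell adhesion molecule that also binds netrin, was at 56.1, 54.8 and 74.4 CPM in wild types and at 31.4, 34.2, 53.4 and 45.0 CPM in mutants, with each series apart (log2 fold change -0.69, SE 0.0995, adjusted p = 0.00371). Rgmb, a ligand of neogenin, was at 94.4, 94.5 and 77.1 CPM in wild types and at 67.1, 75.2, 48.7 and 53.7 CPM in mutants (log2 fold change -0.48, adjusted p = 0.0145; with the replicate block, 0.0746; without wild type 2 or 3, 0.0608 and 0.141). Limk2, a kinase that inactivates cofilin, had a log2 fold change of -0.56 (adjusted p = 0.0155; with the block, 0.0506; without wild type 2 or 3 or mutant 2, 0.0698, 0.129 and 0.0655). Rock1, a kinase that acts on the actin cytoskeleton, was the higher gene, at 8.94 to 9.72 CPM in wild type and 10.6 to 20.1 CPM in mutants (log2 fold change 0.73, adjusted p = 0.0320; with the block, 0.0965), and it passed in 1 of the 7 fits that left out a library, the one without mutant 1.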

How the data were processed

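The libraries (RiboTag) came from 7 mice, 3 of them wild type and 4 nm3888-/-. The authors deduplicated and trimmed reads with fastp, aligned them to mm10 and deposited raw counts per gene (featureCounts 2.0.1 per the file headers; reverse-stranded, GENCODE M25). The alignment folders in the headers are named Bowtie2 in the first library series and STAR in the second, whereas the methods name Bowtie2 alone; batch was a covariate there, without saying which library was in which batch, so the series shown by the library names was used. The methods speak of 3 libraries per genotype and the labels give 4 for the mutant.

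Counts were TMM-normalized and tested across 17621 genes that passed filterByExpr, with edgeR 4.0.16 (limma 3.58.1, R 4.3.3; glmQLFit and glmQLFTest, library series as a term, Benjamini-Hochberg), a test first tried on simulated data. DESeq2 1.42.0, RLE factors, other filters, no series term, sex, a replicate block, each series alone and each library left out were alternatives. Promoter stretches came from RefSeq (58 of 68 genes matched). Symbols matched 55141 of 55401 gene IDs, and coordinates are of mm10.

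Replicate numbers were given in the labels. Deviations of same-numbered libraries from their group means correlated at r = 0.905, 0.947 and 0.955 across genes, but so did other libraries of one series (wild type 1 with mutant 2, r = 0.922), so that the number follows the series. Mutant 4 has no partner and adds nothing to the blocked fit.

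Members and lists were chosen with earlier results of these data known. Named were called genes, the 2 members of each family at the highest level per kilobase and up to 3 called genes per direction of each signalling list. Sema3c, Sema4a, Sema6d, Neo1, Plxnb2, Plxna2, Plxna3, Plxnc1, Ephb1, Ephb3 and further uncalled members were singled out after their values were seen. Markers are given as sums. Precision follows depth and covers counting error and the spread between mice.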

Additional observations from a re-analysis of the deposited data

Results flagged for a closer look

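Slit3 was flagged because mutant 3, at 5.26 CPM, stood apart from the other mutants (1.15, 1.55 and 1.77 CPM); its gap to the nearest of them was 0.849 of the whole range. Without mutant 3 the log2 fold change was -0.05. Sema6d was flagged because mutant 2, at 28.8 CPM, stood apart from the other mutants (68.8, 65.6 and 65.5 CPM), with a gap of 0.917 of the range. Without mutant 2 it passed as higher (log2 fold change 0.99, adjusted p = 0.0081). In groups of 4, chance flags about 1 in 20, and 35 genes were looked at.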

How the results depend on the processing

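The 6 lower genes stayed below 0 in all 16 alternatives; Sema4f passed in 16, Efna3 in 15, Sema7a in 14, Sema6c in 13, Sema6b in 6 and Unc5d in 5. Higher members numbered 5 with DESeq2, 2 with no filter on low counts, 1 with the replicate block and 5 in the second series alone, and 0 to 2 when a library was left out. Lower members numbered 2 with no series term (Efna3, Sema4f; 1.42% of all genes were lower), 1 with sex in its place (Sema4f; 0.482%), and 3 to 7 when a library was left out, the 3 without wild type 3 (2.39%). Of the other signalling genes, the higher ones numbered 5 with DESeq2, 5 with no filter, 1 with no series term, 1 with sex, 1 with the replicate block, 1 in the first series and 10 in the second, and 1 to 2 when a library was left out; the lower ones numbered 0 with no series term, 0 with sex, 2 with the replicate block, 2 in the first series and 1 in the second, and 2 to 9 when a library was left out. Over all genes the share called higher was 4.34% with DESeq2, 2.38% with no filter, 0.329% with no series term and 0.0965% with sex. It was 1.37% with the replicate block, 1.12% in the first series and 0.969% to 2.52% when a library was left out. The share called lower was 1.42% with no series term, 0.482% with sex, 3.24% with the replicate block and 2.86% in the first series. It was 2.39% to 5.76% when a library was left out. Shares in the second series are given above. The cause of these shifts in count was not tested. Apart from these counts, the replicate block changed calls of Sema6b, Unc5d and Sema3f among the named members.

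The fold changes of 11 genes turned sign, none past the threshold in the setting where it did. Most were near 0, but Slit3 (0.41) and Plxnb2 (0.39, called higher by DESeq2) were not. With sex in place of the series, log2 fold changes were 0.015 for Efna5, -0.027 for Robo2, 0.095 for Sema4g, -0.13 for Slit2, -0.21 for Slit3, -0.094 for Plxnb2 and -0.045 for Calb1. In the first series alone they were 0.18 for Epha8, -0.062 for Robo2, 0.13 for Sema4g and -0.14 for Slit2, and in the second alone -0.13 for Ntng1 and 0.14 for Ntng2. Ntng2 was at 0.053 with no series term and 0.029 with the replicate block, and Robo2 at -0.0018 with no filter. Leaving out a library gave -0.32 to 0.18 for Epha8, -0.036 to 0.24 for Ntng1, -0.15 to 0.046 for Ntng2, -0.28 to 0.24 for Robo2, -0.095 to 0.13 for Sema4g, -0.15 to 0.34 for Slit2, -0.050 to 0.61 for Slit3, -0.031 to 0.36 for Rreb1 and -0.0055 to 0.23 for Calb1.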
